A study of Mus musculus with 24 samples.

Results

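H3K4me2 was compared between wild-type (WT) and Shh-/- mouse limb buds, using the H3K4me2 peak lists of the series, 1 list for each genotype. The comparison took 6 of the 24 samples of the series, which were 4 ChIP-seq libraries and 2 inputs, and 75110 of the 368383 peaks in all lists. Members were chosen by tissue, genotype and histone mark as the labels give them, with no measured value used. Both groups were whole forelimb buds of E10.5 embryos at 32 to 35 somites on a Swiss Webster background, with 400000 cells in each ChIP. The WT group could include, by the study's methods, littermates heterozygous for the Shh mutation as well as wild-type embryos. The Shh-/- group was homozygous for the Shh tm1amc null allele, which removes SHH from every cell of the embryo throughout development, so changes in limb size, cell survival and cell composition are part of the model. Forelimbs of several embryos were pooled for each ChIP, and each genotype had 2 ChIP libraries and 1 input. Each peak list pooled both ChIP libraries of its genotype, so no value below has a replicate error and no test between genotypes was possible. Intervals are 95% Wilson intervals, which cover counting error only, and neighbouring peaks are not independent. Read depth is unknown from the lists.

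Sonic hedgehog (SHH) is secreted by posterior limb bud cells, the zone of polarizing activity, and relieves the repression of target genes by truncated GLI proteins. Without SHH these GLI repressors persist, posterior genes such as Hand2, Grem1 and the 5′ Hoxd genes lose expression, and anterior genes expand. Dimethylation of histone H3 at lysine 4 (H3K4me2) marks promoters and enhancers that are active or poised, and it can be present where acetylation of lysine 27 (H3K27ac), a mark of active elements, is not.

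The WT list held 36613 peaks over 21.9 Mb and the Shh-/- list held 38497 peaks over 19.7 Mb, so the Shh-/- list had more peaks but 90.0% of the covered sequence. This ratio is the level against which all gene values below are read. Peaks were narrower in Shh-/-, with a median of 400 bp against 450 bp. Because the tissue was whole buds, fewer cells carrying the mark and less mark in each cell cannot be told apart. All 12 limb mesenchyme markers had H3K4me2 in both lists, and their summed covered sequence was 102000 bp in WT and 86200 bp in Shh-/-, with genes between 900 and 20100 bp in WT and between 750 and 17500 bp in Shh-/-. The mark does not by itself identify the tissue, since 13 of 14 neural regulators and all 3 hindlimb genes also carried it. Of the marker genes for other cells of the bud, the ectodermal genes Fgf17 and Trp63 and the muscle genes Myf5 and Myod1 had no peak in Shh-/-. The endothelial genes Tek, Tie1 and Emcn had no peak in either list, and neither did the blood genes Gata1, Spi1, Hbb-y, Hba-x and Hbb-bh1. Cdh5 had no peak in Shh-/- and Lyl1 had none in WT. Summed over each list, Shh-/- held 97.5% of the WT covered sequence at 15 ectoderm and apical ridge genes, 92.8% at 8 muscle precursor genes, 82.3% at 12 endothelial genes and 104% at 10 blood genes. The part of cell composition in the differences below was not tested.

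Promoter H3K4me2 was largely shared between WT and Shh-/-, while distal H3K4me2 was shared much less. Peaks that touched sequence between 2 kb upstream and 1 kb downstream of a coding transcription start were classed as promoter peaks. Peaks with at least 1 bp in common with the other genotype's list were counted as shared. In WT, 23607 peaks were at promoters, and 86.4% of them (95% interval 85.9 to 86.8%) were shared. Of the 12978 distal WT peaks, 52.2% (51.4 to 53.1%) were shared. The Shh-/- list gave the same order, with 89.4% (89.0 to 89.8%) of 24896 promoter peaks and 55.6% (54.7 to 56.4%) of 13572 distal peaks shared. The promoter and distal intervals did not overlap within either list.

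Sharing fell with the authors' peak rank in both classes, and distal peaks fell further. In the best decile of WT peaks, 99.8% of promoter peaks and 99.3% of distal peaks were shared. In the worst decile these shares were 41.8% and 24.4%. In Shh-/- the worst decile had 60.4% of promoter peaks and 32.9% of distal peaks shared. Distal sharing also fell with distance from a gene: 57.3% of WT distal peaks within 5 kb of a coding start were shared, against 39.9% between 100 and 500 kb and 23.2% of the 185 peaks beyond 500 kb. In Shh-/- the corresponding shares were 64.0%, 39.3% and 16.6% of 265 peaks.

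**Figure D1:**
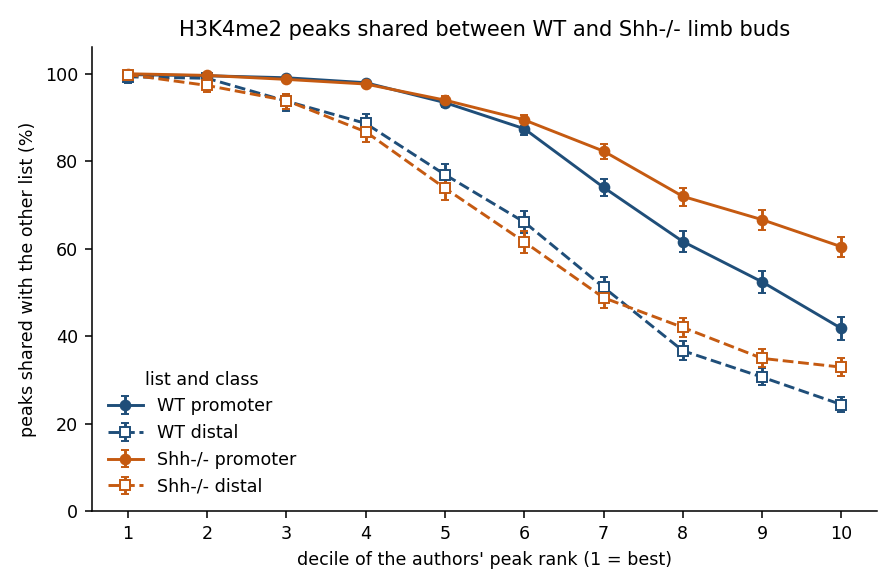
Percent of H3K4me2 peaks shared with the other genotype's list (y axis) by decile of the authors' peak rank (x axis, 1 is best), for promoter peaks (filled) and distal peaks (open) of the WT and Shh-/- lists, with bars for the 95% Wilson interval. Nearly all peaks of the best decile were shared in both classes, and the worst decile fell to 41.8% of WT promoter peaks and 24.4% of WT distal peaks.

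At promoters, most of the sequence found in 1 list alone lay inside shared peaks, at their edges or in gaps between peaks of the other list. At distal sites most of it lay in whole peaks that the other list lacked. WT promoter peaks covered 17.1 Mb, of which 4.11 Mb was absent from the Shh-/- list, and 83.7% of that absent sequence was inside peaks that overlapped a Shh-/- peak. For WT distal peaks 2.17 Mb was found in WT alone and 46.5% of it was inside shared peaks. In Shh-/- the corresponding values were 2.34 Mb and 79.5% at promoters, and 1.74 Mb and 40.0% at distal sites. Unshared WT promoter peaks were short, with a median of 200 bp where shared promoter peaks had 700 bp. A Shh-/- peak was found no more than 500 bp away for 76.5% of unshared WT promoter peaks and 42.6% of unshared WT distal peaks. Peaks standing more than 5 kb from any peak of the other genotype made up 1.29% of WT promoter peaks (305) and 19.7% of WT distal peaks (2559), and 0.719% (179) and 19.5% (2650) in Shh-/-.

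Where 1 WT peak overlapped exactly 1 Shh-/- peak, the WT peak was more often the wider. Of 18689 such pairs, 55.7% were wider in WT and 33.8% were wider in Shh-/-, and the remainder had the same width. The median widths were 650 bp in WT and 550 bp in Shh-/-. The authors' maximal log2 enrichment over input had a median WT minus Shh-/- difference of -0.06 over the same pairs, and 95% of pairs lay between -1.33 and 1.17 on the log2 scale. The medians of peak height were thus close while the called widths were smaller in Shh-/-.

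The sequence around unshared peaks was also poorer in CpG dinucleotides, a property the overlap did not use. In the 300 bp around the peak middle, shared WT distal peaks held a median of 10 CpGs and unshared ones held 5. In Shh-/- these medians were 9 and 5. GC content fell in the same order, from 53.7% to 49.0% in WT distal peaks and from 53.0% to 47.0% in Shh-/- distal peaks. At promoters the medians were 11 CpGs for shared peaks of both lists, against 9 for unshared WT peaks and 7 for unshared Shh-/- peaks. The window had the same length for every peak. Unshared distal peaks had a median width of 150 bp in both lists, against 450 bp (WT) and 350 bp (Shh-/-) for shared ones. Many windows of unshared peaks thus reached outside the peak, and the part of peak width and rank was not tested.

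Among 21827 coding genes, 15243 had H3K4me2 in at least 1 list, and few of them differed much between genotypes. Each peak was assigned to the coding gene whose transcription start was nearest to its midpoint. Covered sequence was higher in WT at 9432 genes (61.9%), higher in Shh-/- at 4890 genes (32.1%) and equal at 921. The median WT minus Shh-/- difference was 100 bp, and 95% of genes lay between -550 and 1000 bp. A gene was called when its lists differed by at least 1000 bp and at least 2-fold, and when the higher list held at least 80% of the sequence found in 1 list alone. By this rule 103 genes had more H3K4me2 in WT (0.676% of the 15243 genes) and 32 had more in Shh-/- (0.21%). With the WT list cut by rank to the covered sequence of the Shh-/- list, 65 genes were called more in WT and 115 more in Shh-/-. Since this cut only removes WT peaks, it can only lower the WT count and raise the Shh-/- count.

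Some calls came from broad peaks between neighbouring genes, whose midpoints fell on either side in the 2 lists. The formin gene Fhod1 had 4000 bp in WT and 1300 bp in Shh-/-, whereas its neighbour Slc9a5, a sodium and hydrogen exchanger, had 0 bp in WT and 2300 bp in Shh-/-. When every 50 bp of a peak was assigned to its own nearest start, Fhod1 had 2200 and 1500 bp and Slc9a5 had 1800 and 2100 bp, and neither was called. The histone gene Hist2h2ac, among those with the largest difference towards Shh-/- by midpoints (950 and 3250 bp), had 550 and 650 bp by this assignment. Both assignments called 70 genes more in WT (0.459%) and 9 more in Shh-/- (0.059%), and the genes described below are from these calls unless stated. Of the 12 genes with the largest difference in each direction by midpoints, 7 were called by both assignments in WT and 0 in Shh-/-.

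**Figure D2:**
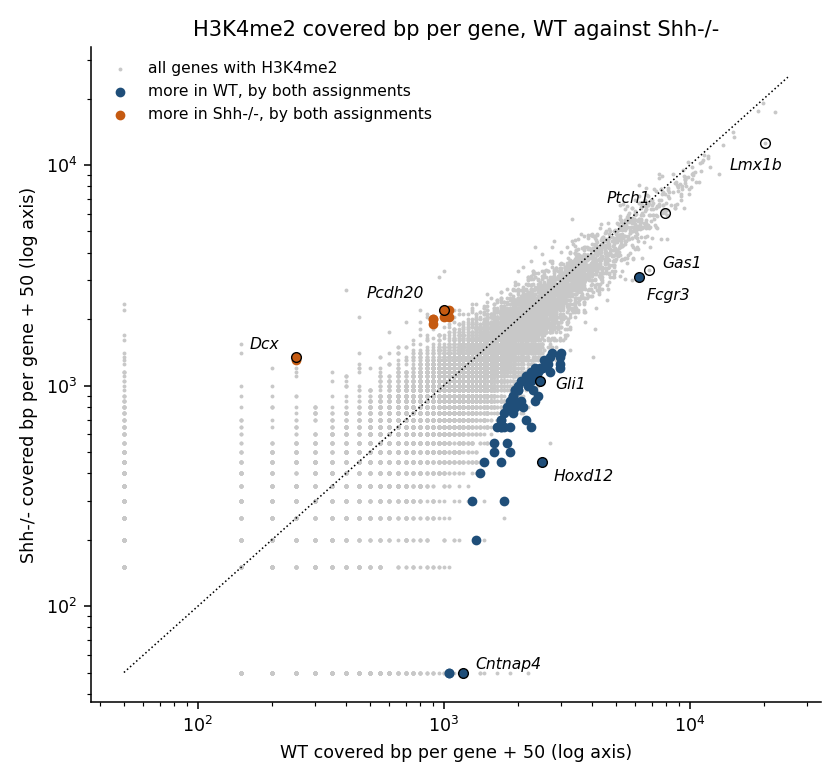
Covered H3K4me2 sequence of each of 15243 coding genes in WT (x axis) and Shh-/- (y axis), in bp with 50 added and on log axes, with genes called by both assignments in colour (70 more in WT, 9 more in Shh-/-), equality dotted, and named genes ringed. Called genes lie at low and middle coverage. Of the ringed genes, Cntnap4 and Hoxd12 stand furthest below the line, and Lmx1b and Ptch1 lie below it without a call. Other called genes, such as Zfp317, Zfp970 and Adhfe1, lie further below it than Hoxd12.

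Of the Hedgehog-dependent genes, only Hoxd12 and Gli1 were called, both with less covered sequence in Shh-/-. The study compared H3K4me2 by read counts with replicates and reported no significant reduction in Shh-/- at GLI-bound regions. Over all H3K4me2 peaks it reported almost none as changed. The few reduced in Shh-/- lay outside GLI-bound and other Hedgehog-responsive regions. The differences here are of peak lists and were not tested. Hoxd12 (ENSMUSG00000001823), a posterior and distal limb homeobox gene, had 2450 bp in 7 peaks in WT and 400 bp in 1 peak in Shh-/-, a 6.12-fold difference. In WT its peaks ran from upstream of the start through the gene, including a peak of 700 bp at chr2:74675050-74675749 that lay just inside the transcription start at position 74675013. The only Shh-/- peak, at chr2:74672750-74673149, lay upstream of the start, and the gene itself had none. Its H3K27ac followed the same direction, with 2600 bp in WT and 0 bp in Shh-/-.

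Gli1 (ENSMUSG00000025407), a transcriptional effector and direct target of Hedgehog signalling, had 2400 bp in 5 peaks in WT and 1000 bp in 4 peaks in Shh-/-. The reduction was greatest at the promoter, where WT had 950 bp and Shh-/- had 100 bp. A peak within the gene was kept, with 650 bp in each list (chr10:127339400-127340049 in WT and chr10:127339450-127340099 in Shh-/-). The H3K27ac of Gli1 was 2300 bp in WT and 0 bp in Shh-/-, and 2350 bp of H3K27me3, a Polycomb mark listed for Shh-/- alone, lay at the locus. Over the whole gene and 20 kb at each end, where neither gene met the rule, Gli1 had 5050 and 3800 bp and Hoxd12, whose window then spans neighbouring Hoxd genes, had 16450 and 9850 bp. Hoxd12 also lost its call by rank: with the better-ranked 50% of peaks its difference was 250 bp.

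The WT sequences below are shown because each is a peak, or its centre, found in WT alone at a locus called more in WT. They are the plus strand of GRCm38 from GENCODE's genome, in lower case with CpG dinucleotides in capitals. The Hoxd12 window is intergenic at chr2:74673900-74674099, 750 bp from the nearest Shh-/- peak, and holds 5 CpGs. The Gli1 window, at chr10:127342075-127342374, is upstream of the Gli1 start at 127341974, in an intron of the overlapping gene model Gm47200, and holds 10 CpGs. Its peak directly adjoins a Shh-/- peak without overlapping it. The Fcgr3 window is intergenic at chr1:171070450-171070749, 1250 bp from the nearest Shh-/- peak, and holds 19 CpGs. None of the 3 windows contains GACCACCCA, the core letters of the GLI binding motif, on either strand.
Hoxd12: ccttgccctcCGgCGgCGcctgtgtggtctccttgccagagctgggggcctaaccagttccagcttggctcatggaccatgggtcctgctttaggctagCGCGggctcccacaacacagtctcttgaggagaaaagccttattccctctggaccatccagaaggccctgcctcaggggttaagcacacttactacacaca
Gli1: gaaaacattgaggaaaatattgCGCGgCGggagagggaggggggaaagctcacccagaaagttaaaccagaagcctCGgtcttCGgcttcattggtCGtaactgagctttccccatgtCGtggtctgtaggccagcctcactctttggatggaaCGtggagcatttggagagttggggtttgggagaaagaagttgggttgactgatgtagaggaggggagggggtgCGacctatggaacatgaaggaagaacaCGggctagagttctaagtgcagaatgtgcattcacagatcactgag
Fcgr3: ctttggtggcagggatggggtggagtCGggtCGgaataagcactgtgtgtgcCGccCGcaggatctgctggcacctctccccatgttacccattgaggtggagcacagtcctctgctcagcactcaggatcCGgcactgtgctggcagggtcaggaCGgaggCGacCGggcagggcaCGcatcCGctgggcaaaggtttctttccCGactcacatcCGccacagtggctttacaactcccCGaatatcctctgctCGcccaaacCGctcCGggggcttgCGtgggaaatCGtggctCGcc

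The letters GACCACCCA were searched on both strands in the 300 bp around the middle of every peak. They were in 0 of 269 WT peaks and 0 of 255 Shh-/- peaks at genes of 2 lists. These lists were the 23 Hedgehog-dependent genes and 17 genes for Hedgehog ligands, reception and processing. Of all coding promoters, 0.253% held the letters (83 of 32851). The search covers exact matches in these windows and says nothing of GLI binding.

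Other regulators called more in WT were found outside the Hedgehog list. Hoxa13, an autopod homeobox gene, had 1850 bp in WT and 800 bp in Shh-/-, but the better-ranked 50% of peaks gave the opposite sign (-400 bp). Nkx2-2, a ventral neural transcription factor that responds to SHH in the neural tube, had 1950 and 900 bp. Foxf1, a forkhead factor of lateral plate mesoderm, had 1950 and 950 bp, and Sim2, a bHLH-PAS factor, had 1750 and 500 bp. Cbx2, a Polycomb chromodomain protein, had 2900 and 1300 bp. Mlxip, a glucose-responsive bHLH factor, had 2900 and 1150 bp. These genes were named after their values were seen, except Cbx2 and Mlxip, which were among the 12 largest differences. Of 8 alternative settings, the call was kept in 2 at Hoxa13, 3 at Foxf1, 5 at Nkx2-2, Sim2 and Cbx2, and 7 at Mlxip. H3K27me3 in Shh-/- covered 22400 bp at Hoxa13, 15750 bp at Nkx2-2, 27650 bp at Foxf1 and 23500 bp at Sim2. Their WT H3K27ac was 0, 0, 300 and 500 bp in the same order. Cbx2 and Mlxip had 0 bp of H3K27me3, with 1800 and 1200 bp of H3K27ac in WT.

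The largest WT difference among calls held by both assignments was at Fcgr3, an immunoglobulin Fc receptor of immune cells. It had 6150 bp in WT and 3050 bp in Shh-/-, all of it distal. The sequence lay in a series of broad WT peaks, such as 1550 bp at chr1:171079700-171081249, where Shh-/- had peaks of 400 and 100 bp. Its H3K27ac was 150 bp in each list, and H3K27me3 covered 17000 bp of the locus in Shh-/-. The call was lost with lists of equal covered sequence, where the difference was 2450 bp, with peaks merged over 500 bp and over the gene body.

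Gpr84, a receptor for medium-chain fatty acids, had 2900 and 1200 bp. Nlgn3, a synaptic adhesion protein, had 2200 bp in WT and 600 bp in Shh-/-, and Hsf2bp, a meiotic recombination factor, had 2950 and 1350 bp. The largest WT differences at promoters followed. Adhfe1, an alcohol dehydrogenase, had 1500 bp of promoter H3K4me2 in WT and 150 bp in Shh-/-. Grb10, an imprinted adaptor that restrains growth signalling, had 1100 bp of promoter H3K4me2 in WT and 100 bp in Shh-/-. Over the whole locus Aldh7a1, an aldehyde dehydrogenase, had 1800 and 450 bp, Vps26c 1800 and 600 bp, Lrfn4 2150 and 950 bp, and Nt5dc2 2300 and 1150 bp. All 6 of these largest promoter differences were called by both assignments.

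H3K4me2 was found in WT alone at 535 genes and in Shh-/- alone at 475 genes, with medians of 200 and 150 bp, so most fell under the 1000 bp that a call required. Among calls, Cntnap4, a neural adhesion protein, had 1150 bp in 3 WT peaks and none in Shh-/-. The zinc finger genes Zfp317 and Zfp970 each had 1000 bp in WT and none in Shh-/-, and were named after their values were seen. Of the 6 largest differences with no peak in the other list, 1 in WT (Cntnap4) and 0 in Shh-/- were held by both assignments. Hs3st3a1, which had 2150 bp in WT and 0 bp in Shh-/- by midpoints, had 1150 and 1000 bp by the 50 bp assignment.

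The 9 genes with more H3K4me2 in Shh-/- included no member of the anterior limb gene list or of the other gene lists. Dcx, a microtubule protein of migrating neurons, had 200 bp in WT and 1300 bp in Shh-/-, in 1 peak of each list just inside the gene. Pcdh20, a protocadherin, had 950 and 2150 bp, and Trpc4, a cation channel, had 1000 and 2150 bp. Syt13, a synaptotagmin, had 850 and 1850 bp. Hmx1, a homeobox gene of cranial sensory structures, had 950 and 2000 bp. The others were Rps6ka6, a ribosomal S6 kinase gene, with 200 and 1250 bp, Srprb, a subunit of the signal recognition particle receptor, with 850 and 1950 bp, Ndufa4, a respiratory chain subunit, with 850 and 1950 bp, and Msl3l2 with 1000 and 2000 bp. None of these 9 genes was covered in the Shh-/- list alone. The Ndufa4 value included a 200 bp peak at chr6:10640050-10640249, remote from the gene at chr6:11900292-11907497. Without that peak the Ndufa4 difference would fall under the 1000 bp of the call rule.

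The Shh-/- sequences below are the centres of peaks found in Shh-/- alone at the loci with the 2 largest differences of this kind, in the same format. The Trpc4 window, at chr3:54157200-54157499, is in an intron of Trpc4 near its start, 50 bp from a WT peak, and holds 10 CpGs. The window assigned to Pcdh20, at chr14:89898825-89899124, is in an exon of the non-coding gene model Gm10110 and holds 30 CpGs. Its peak is 1427578 bp from the Pcdh20 start, so its assignment to that gene rests on distance alone. Without this peak of 450 bp Pcdh20 would not meet the call rule. The other sequence that Pcdh20 gained was at the gene itself, where Shh-/- had peaks of 650 and 950 bp and WT had peaks of 200, 400 and 250 bp.
Trpc4: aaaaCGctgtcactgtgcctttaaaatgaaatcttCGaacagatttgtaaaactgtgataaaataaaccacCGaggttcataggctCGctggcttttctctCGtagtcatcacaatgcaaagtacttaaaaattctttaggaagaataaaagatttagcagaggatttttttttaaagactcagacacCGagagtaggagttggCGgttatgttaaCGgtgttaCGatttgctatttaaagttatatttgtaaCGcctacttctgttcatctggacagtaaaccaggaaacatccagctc
Pcdh20: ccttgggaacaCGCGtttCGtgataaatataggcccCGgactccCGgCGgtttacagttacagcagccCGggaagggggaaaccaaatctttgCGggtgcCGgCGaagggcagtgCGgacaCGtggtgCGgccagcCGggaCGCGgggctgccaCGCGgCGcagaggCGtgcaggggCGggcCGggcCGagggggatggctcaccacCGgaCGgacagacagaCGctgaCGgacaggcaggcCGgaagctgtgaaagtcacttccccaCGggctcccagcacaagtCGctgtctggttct

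As a group, the 23 Hedgehog-dependent limb genes had 98500 bp of H3K4me2 in WT and 83000 bp in Shh-/-, which was 84.3% of WT against 90.0% over all genes. Covered sequence was higher in WT at 17 genes (61.9% of all genes were higher in WT), higher in Shh-/- at 5 and equal at 1. The 2 genes called were Gli1 and Hoxd12, both more in WT, as were 0.676% of all genes. The list was assembled with results of these data known and is not independent evidence of a direction. With the lists cut to equal covered sequence, where all genes stood at 100% of WT, the Hedgehog-dependent genes had 97.8%, with 13 higher in WT and 10 higher in Shh-/-. With peaks within 500 bp merged they had 75.2% against 92.1% over all genes, and over gene bodies 74.9% against 89.5%, with 19 of 23 higher in WT. The per-gene value in Shh-/- ranged from 16.3% to 136% of WT, with a median of 79.0%.

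Among pathway targets and feedback inhibitors, Ptch1, the SHH receptor and a direct target, had 7850 bp in WT and 6000 bp in Shh-/- (76.4% of WT). Hhip, a secreted Hedgehog antagonist, had 2150 and 1550 bp. Both were lower in Shh-/- and neither was called, and with lists of equal covered sequence Hhip was higher in Shh-/- by 100 bp (WT minus Shh-/- -100 bp).

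The 5′ Hoxd genes had lower values in Shh-/-, also with lists of equal covered sequence. Hoxd10 had 6250 and 4650 bp, Hoxd11 had 2900 and 1700 bp and Hoxd13 had 1100 and 600 bp. Evx2, the homeobox gene beside Hoxd13, had 700 and 300 bp. Of these 4 genes none was called, and with the better-ranked 50% of peaks the Hoxd11 difference changed sign (-150 bp).

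The transcription factor Hand2, which acts upstream of Shh, had 9250 and 8000 bp, and Grem1, a BMP antagonist that maintains the apical ridge, had 2400 and 2150 bp. Tbx3 had 10100 and 8550 bp, Sall1 7750 and 6500 bp, Sall3 5950 and 4700 bp and Osr1 4650 and 3450 bp, all of them transcription factor genes. With lists of equal covered sequence the sign turned at Hand2 (WT minus Shh-/- -1300 bp) and Tbx3 (-300 bp). Values were higher in Shh-/- at Bmp2, a BMP ligand (1950 and 2650 bp), and at the transcription factor genes Tbx2 (3350 and 3950 bp) and Prdm1 (5050 and 5350 bp). Jag1, a Notch ligand, had 3550 and 3800 bp. Of the cell cycle genes, Mycn had 6600 bp in both lists, Ccnd1 had 5400 and 5550 bp, and Cdk6 had 4600 and 4300 bp. With the better-ranked 50% of peaks Mycn had 2800 and 5500 bp and Ccnd1 3600 and 5400 bp.

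**Figure D3:**
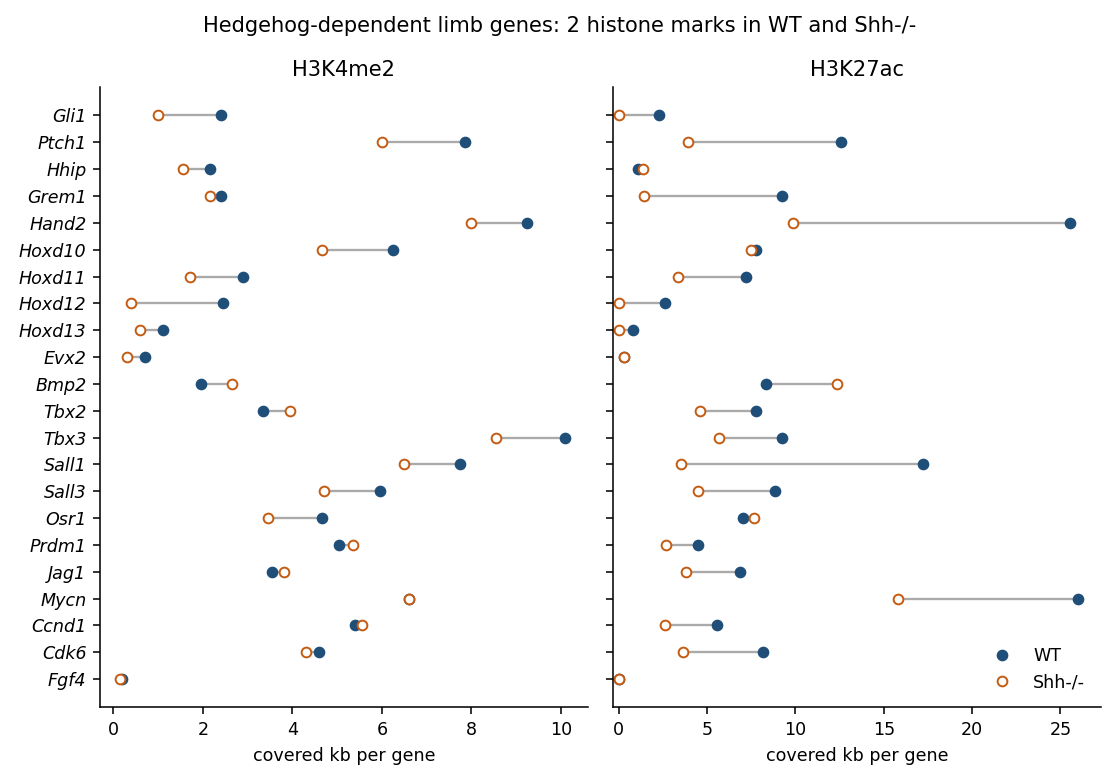
Covered sequence per gene in kb (x axis) of H3K4me2 (left) and H3K27ac (right) for 22 of the 23 Hedgehog-dependent limb genes in WT (filled) and Shh-/- (open), joined by a line for each gene, with H3K27ac by the 50 bp assignment. H3K4me2 values lay close together at most genes, whereas H3K27ac was far lower in Shh-/- at genes such as Hand2, Sall1 and Grem1.

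H3K27ac at the same genes, a readout the H3K4me2 lists did not use, fell much further. Since the gene list was assembled with results of these data known, its H3K27ac values are not independent evidence either. Summed over the 23 genes, Shh-/- had 50.6% of the WT H3K27ac sequence (52.5% by the 50 bp assignment), against 84.8% over all genes with H3K4me2. By a rule of at least 1000 bp and at least 2-fold, 9 of the 23 had more H3K27ac in WT by midpoints (3.31% of all genes did) and 9 by the 50 bp assignment (2.8% did). Both assignments held this at 8 genes, which were Gli1, Ptch1, Grem1, Hand2, Hoxd12, Sall1, Ccnd1 and Cdk6. Hoxd10 was lost, with 19650 and 8750 bp by midpoints but 7750 and 7500 bp by the 50 bp assignment, and Hoxd11 took its place with 7200 and 3350 bp. Summed over the 8 genes, Shh-/- had 30.0% of the WT H3K27ac and 80.5% of the WT H3K4me2. The 8 genes were picked for their lower H3K27ac, so its low share follows from that choice. At Grem1, H3K27ac was 9250 bp in WT and 1450 bp in Shh-/- (15.7%), while H3K4me2 was 89.6% of WT. At Hand2 the H3K27ac values were 25550 and 9850 bp (38.6%), with H3K4me2 at 86.5% of WT. At Sall1 they were 17200 and 3500 bp (20.3%), with H3K4me2 at 83.9%. The H3K27ac of Ccnd1 was 46.8% of WT, with H3K4me2 at 103%. Of the 22 genes with H3K27ac in WT, 17 kept a larger share of their WT H3K4me2 than of their WT H3K27ac. By midpoints the exceptions were Hhip, Hoxd11, Evx2, Osr1 and Bmp2. With H3K27ac by the 50 bp assignment, the same was seen at 8 of 8 chondrogenic genes with H3K27ac in WT. It was seen at 4 of 11 housekeeping genes, 3 of 11 proximal limb genes and 2 of 12 limb mesenchyme markers. The share over all genes was not counted.

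Over 17 genes for Hedgehog ligands, reception and processing Shh-/- had 91.7% of the WT H3K4me2 and 106% of the WT H3K27ac, and 0 were called (against 0.676% and 0.21% of all genes). Values of single members were lower in Shh-/- at Shh itself, with 1450 and 750 bp, and at Evc2, a ciliary pathway component, with 1350 and 550 bp. Sufu, an inhibitor of GLI proteins, had 1000 and 1150 bp of H3K4me2 and 1750 and 750 bp of H3K27ac. Gas1, a SHH co-receptor that SHH represses, had 6750 bp in 17 peaks in WT and 3300 bp in 11 peaks in Shh-/-, a 2.05-fold difference, but 77.6% of the sequence found in 1 list alone was in WT, so it was not called. Its H3K27ac went the other way, with 42150 bp in WT and 51800 bp in Shh-/-.

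The 9 anterior limb genes, which are expressed away from SHH, had 103% of the WT H3K4me2 in Shh-/- (132% with lists of equal covered sequence) and 158% of the WT H3K27ac. Lists of equal covered sequence also gave 122% at muscle precursor genes and 115% at chondrogenic genes, but 95.4% at limb mesenchyme markers. None of the anterior genes was called for H3K4me2, while 3 had more H3K27ac in Shh-/- by both assignments (0.689% of all genes did by midpoints and 0.358% by the 50 bp assignment). Alx4, a homeobox gene of the anterior bud, had 5150 and 6500 bp of H3K4me2 beside 7050 and 15350 bp of H3K27ac. Pax1, a paired-box gene of the shoulder girdle, had 600 and 800 bp beside 2000 and 8100 bp. Pax9, its close relative, had less H3K4me2 in Shh-/- (3900 and 2950 bp) and more H3K27ac (1050 and 3700 bp).

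Of the other gene groups, the 20 Hoxa and Hoxd genes had 84.3% of the WT H3K4me2 in Shh-/-, with 15 higher in WT and 2 called more in WT (Hoxa13 and Hoxd12, against 0.676% of all genes), and 98.2% with lists of equal covered sequence. The 12 proximal limb genes had 90.9%, the 11 chondrogenic genes 99.1% (with 72.7% of the WT H3K27ac) and the 12 housekeeping genes 88.5%. The 14 neural regulators had 89.8%, with 1 called more in WT (Nkx2-2). The limb mesenchyme markers had 84.5% with 11 of 12 higher in WT and 0 called, against 61.9% of all genes higher in WT. With merged peaks these markers had 91.9%, and over gene bodies 89.7%.

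**Figure D4:**
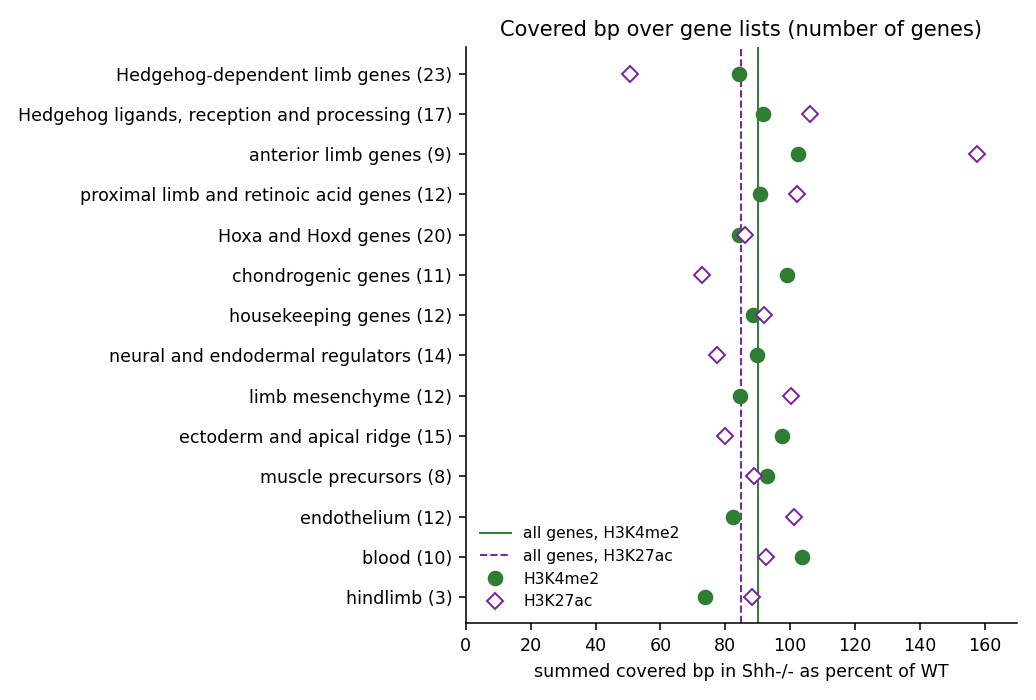
Summed covered sequence in Shh-/- as a percent of WT (x axis) for H3K4me2 (circles) and H3K27ac (diamonds) over each gene list, with the number of genes in brackets and vertical lines for all genes. H3K4me2 lay between 73.6% and 104% in every list, whereas H3K27ac ranged from 50.6% in the Hedgehog-dependent genes to 158% in the anterior genes.

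The largest differences in covered sequence, whatever the fold, included limb and mesenchyme regulators with long marked domains, and these genes were named after their values were seen. Lmx1b, the determinant of dorsal limb identity, had 20100 bp in WT and 12500 bp in Shh-/- (1.61-fold), of which 18050 and 11250 bp were distal. Nr2f2, a nuclear receptor of mesenchyme, had 22150 and 17250 bp, and its H3K27ac was 22850 and 11050 bp. Mtx2, a mitochondrial import gene that borders the Hoxd cluster and its distal regulatory sequence, had 5750 bp in 19 peaks in WT and 2950 bp in 10 peaks in Shh-/-, and 4800 and 2250 bp of this was distal. Among genes higher in Shh-/-, Hoxc4 had 6150 and 8100 bp, and Col1a2, a fibrillar collagen, had 2300 and 4200 bp. None of these 5 genes met the call rule.

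Of the 70 genes called more in WT for H3K4me2 by both assignments, 7 also had more H3K27ac in WT (10.0%, 95% interval 4.93 to 19.2%), against 3.31% of all genes. Of all 103 genes called by midpoints the share was 6.80% (3.33 to 13.4%). The opposite, more H3K27ac in Shh-/-, was found at 1 of the 70 genes (1.43%, 0.253 to 7.66%). It was found at 3 of the 103 (2.91%, 0.995 to 8.22%), against 0.689% of all genes. The 7 genes included Gli1, Hoxd12, Irx1, Smoc1, Dusp9 and 1700018B08Rik. Irx1, an Iroquois homeobox gene, had 2350 bp in WT and 1100 bp in Shh-/- for both marks. Smoc1, a secreted BMP modulator required for limb development, had 2500 and 1250 bp of H3K4me2 and 4300 and 350 bp of H3K27ac, but its H3K4me2 difference changed sign with lists of equal covered sequence (-350 bp). Dusp9, a MAP kinase phosphatase, had 2200 and 1050 bp of H3K4me2. In the other direction, 0 of the 9 genes called more in Shh-/- by both assignments had more H3K27ac in Shh-/-, and 0 of the 32 by midpoints (95% interval up to 10.7%), an interval that includes the 0.689% of all genes.

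At genes with more H3K27ac in WT, summed H3K4me2 stood near the level of all genes. At the 504 genes with more H3K27ac in WT, Shh-/- had 32.8% of the WT H3K27ac but 87.1% of the WT H3K4me2, near the 90.0% of all genes. These genes were chosen by H3K27ac, so its low share follows from that choice. H3K4me2 was higher in WT at 336 of them (66.7%, against 61.9% of all genes) and higher in Shh-/- at 141, and 7 were called more in WT (1.39%, against 0.676%). At the 105 genes with more H3K27ac in Shh-/-, H3K27ac, by which they were chosen, was 365% of WT and H3K4me2 was 90.5%. For H3K4me2, 3 of these 105 genes were called more in WT (2.86%, against 0.676%) and 0 more in Shh-/-. Assigning every 50 bp to its own nearest start left 55 such genes, with H3K4me2 at 98.1% of WT and 0 called in either direction (against 0.455% and 0.0585% of all genes).

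Sharing of distal peaks also varied with their H3K27ac. Of WT distal H3K4me2 peaks that carried H3K27ac in both genotypes, 60.5% of 3639 were shared with Shh-/-. Of those with H3K27ac in WT alone, 48.6% of 1086 were shared (95% interval 45.7 to 51.6%), close to the 48.8% of distal peaks with no H3K27ac in either genotype. With H3K27ac in Shh-/- alone the share was 53.1%. In the Shh-/- list the distal shares were 64.8% with H3K27ac in both genotypes, 57.6% in WT alone, 49.7% in Shh-/- alone and 51.7% in neither, so the order of the last 3 classes differed between the lists. Peaks also ranked worse where H3K27ac was in WT alone, with a median rank percentile of 69.8% in the WT list against 63.5% with H3K27ac in both, and the part of rank in these shares was not tested. At promoters the shares were 91.0%, 90.7% (89.5 to 91.8%) and 79.9% in the same order, so promoter peaks with H3K27ac in WT alone were shared about as often as those with H3K27ac in both.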

How the data were processed

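Limb buds were profiled by ChIP-seq for H3K4me2 in 2 libraries per genotype, with 1 input each. The submitters' processing notes name Bowtie2 2.2.5 and mm10 (GRCm38). Peaks were called by the authors with CisGenome from both ChIP libraries of a genotype against input, so replicates had been pooled before deposit. The deposited lists give for each peak its position, a rank, a score, the maximal log2 ratio over input, a -log10 p-value and an FDR (q-value), as made by the authors. The study's methods state a minimum sequencing depth for its libraries, but the lists hold no read counts, so the depth behind each value is unknown, and a difference in depth or ChIP enrichment cannot be told apart from one of genotype. No value was normalised between genotypes. The highest FDR was 0.113 in WT and 0.115 in Shh-/-, and 88.0% and 87.5% of peaks had an FDR under 0.05.

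Analysis was restricted to peaks of chromosomes 1 to 19, X and Y, leaving out 28 WT and 29 Shh-/- peaks on scaffolds, and handled as 50 bp bins. Coordinates are printed as deposited and may be off by 1 base. Genes and transcription starts were from GENCODE vM21 (21827 coding genes). Calculations used Python 3.11.15, numpy 2.4.6 and pandas 2.3.3, and were tested on simulated data. Samples were grouped by the labels, and no column was left unmapped. No test between genotypes was made, since each genotype had 1 list, and shares carry 95% Wilson intervals. The members, gene lists and call rule were chosen with earlier results of these data known. Genes named by rule were the 12 with the largest called difference in each direction, the 6 with the largest promoter difference and the 6 with no peak in the other list. Promoter and distal sequence per gene used the assignment of 50 bp bins, which was chosen after seeing the data. H3K27ac lists of both genotypes and the H3K27me3 list of Shh-/- limb buds, from the same deposit, were used as further readouts in the same units. Values of 2 genes are not reported here.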

Additional observations from a re-analysis of the deposited data

How the results depend on the processing

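No paired analysis was possible because each genotype had 1 list that pooled both libraries, and for the same reason no replicate could be left out. The shares of shared peaks, given as WT promoter, WT distal, Shh-/- promoter and Shh-/- distal, kept promoters above distal sites under every alternative tried. They were 87.6%, 55.1%, 90.4% and 58.0% at an FDR under 0.05, 82.6%, 63.0%, 84.0% and 60.5% with the better-ranked 50% of peaks, 94.9%, 75.2%, 82.2% and 43.7% with H3K4me2 lists of equal covered sequence, 95.1%, 54.2%, 95.7% and 54.3% with peaks within 500 bp merged, 77.6%, 41.2%, 83.9% and 47.4% when a shared peak needed 50% overlap, and 88.9%, 56.6%, 92.0% and 61.3% with promoters of 500 bp on either side. On autosomes alone promoter shares were 86.9% and 89.8%. Counts of called genes depended on the setting. They were 586 in WT and 233 in Shh-/- with the better-ranked 50%, 65 and 115 with lists of equal covered sequence, 478 and 217 with merged peaks, and 5 and 4 with a smallest difference of 2000 bp. In Shh-/- the count was 5 over gene bodies with 20 kb on either side, and 9 by the 50 bp assignment. Of the 102 WT calls over gene bodies, 31 were also called by nearest start. The share of WT calls with more H3K27ac in WT was 20.0% (1 of 5) at 2000 bp, against 3.31% of all genes. With merged peaks it was 9.83% against 5.25%, and with lists of equal covered sequence 6.15% against 3.34%. At an FDR under 0.05 it was 5.67% against 3.53%. It was near the share of all genes with the better-ranked 50% (3.92% against 3.79%) and over gene bodies (3.92% against 3.16%). Among called genes, the WT minus Shh-/- differences that changed sign were Eef1akmt4 (2500 bp merged, 500 bp over the gene body), Elmod3 (450 bp), Slc9a5 (550 bp) and Tst (100 bp) over the gene body, Hist2h2ac (150 bp) and Yod1 (-400 bp) merged, Hoxa13 (-400 bp) with the better-ranked 50%, and Smoc1 (-350 bp) with lists of equal covered sequence. The cause was not tested. Of 684 values of named genes under the alternatives, 513 had the same call and 21 changed sign, 9 of them at called genes. The other 12 were at 10 genes that were not called, among them Hand2, Tbx3, Hhip and Hoxd11, and Ccnd1 (450 bp) and Tbx2 (150 bp) over the gene body.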

Other observations

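Some well-ranked peaks stood more than 5 kb from any peak of the other genotype and were not tied to a called gene. At promoters these included WT peaks of 900 bp at the zinc finger gene Zkscan4, 700 bp at Mcts1, a translation re-initiation factor, and 550 bp at Oprk1, the kappa opioid receptor. Among distal peaks the best-ranked of this kind was in Shh-/-, a 450 bp peak at chr1:51333600-51334049 nearest to Cavin2, a caveolae protein. Among the 70 genes with more H3K4me2 in WT by both assignments, 25.7% had at least 1000 bp of H3K27me3 in Shh-/-, as did 3 of the 9 genes with more in Shh-/- (33.3%), against 14.5% of all genes with H3K4me2. H3K27me3 peaks were listed for Shh-/- alone, so whether it differed between genotypes was not tested. By chromosome, covered sequence in Shh-/- ranged from 87.6% to 92.4% of WT over the autosomes and was 88.4% on X.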
